A study of Homo sapiens with 12 samples.

Results

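Expression of 7 genes of the epithelial-mesenchymal transition (SNAI1, SNAI2, ZEB1, ZEB2, TWIST1, VIM and FN1) was followed in HK-2 cells exposed to the compound that the labels call CdCl. The genes were chosen by name, with earlier results of these data known. Each was read on 1 Affymetrix probe set. Among those annotated to that symbol alone, it had the highest mean over the 12 arrays. All 7 had such a probe set and all 7 were among the 10683 genes tested, of 19775 genes with a probe set of 1 symbol. HK-2 cells are an immortalised line from the epithelium of the human proximal tubule. Cells near confluence received CdCl or the control vehicle for 12 h or 48 h, in a study that looked for signatures of kidney toxicity among several compounds. The 4 groups (vehicle controls and CdCl cells at each time) each hold 3 biological replicates, 1 array per replicate. All groups shared the same defined medium with epidermal growth factor, hydrocortisone and insulin, and the sources used here do not give the CdCl dose. HK-2 is 1 cultured line without the other cell types of a kidney, which limits it as a model of a tubule.

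In an epithelial-mesenchymal transition, cells loosen their contacts with neighbours and take up a motile, matrix-producing state. Zinc-finger repressors of the SNAI family (SNAI1, SNAI2) and the ZEB family (ZEB1, ZEB2) bind E-box elements in promoters of junction genes such as CDH1, while TWIST1 is a basic helix-loop-helix factor that pairs with E proteins. VIM encodes the intermediate filament vimentin and FN1 the matrix glycoprotein fibronectin, both used as markers of the mesenchymal state, and cultured tubular lines commonly make both.

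The E-box that SNAI and ZEB proteins prefer reads CAGGTG on one strand and CACCTG on the other. Windows of 250 bases before RefSeq transcription starts (GRCh38.p14) were searched for it on both strands. It stood in 6143 of 35116 windows, or 17.5%. Of the 7 genes, ZEB1, ZEB2, VIM and FN1 had windows in the table, 10 in all, and 2 of the 10 (20%) held the motif, both of them windows of ZEB1. In the epithelial genes listed further on, the first window held it in 11 of 23 genes (47.8%), against 4789 of 27305 first windows of all genes (17.5%). That list names 41 genes, and the rest, CDH1 and EPCAM among them, had no window read here. It includes direct targets of these repressors, so the 2 shares are a description and not a test. The 4 windows shown here are the first windows of ZEB1 and ZEB2, and those of OCLN and MUC1, epithelial genes that hold the motif and moved in opposite directions at 48 h. They run 5′ to 3′ on the strand of the gene and end at the base before the start, with the motif in capitals: ZEB1 at chr10:31318167-31318416 on the plus strand, ZEB2 at chr2:144520120-144520369 on the minus strand, OCLN at chr5:69492297-69492546 on the plus strand and MUC1 at chr1:155192916-155193165 on the minus strand.
ZEB1: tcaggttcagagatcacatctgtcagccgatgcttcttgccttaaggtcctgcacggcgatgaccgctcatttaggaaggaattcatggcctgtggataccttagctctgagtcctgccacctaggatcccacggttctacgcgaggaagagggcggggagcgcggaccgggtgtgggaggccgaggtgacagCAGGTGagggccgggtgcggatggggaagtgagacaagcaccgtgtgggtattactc
ZEB2: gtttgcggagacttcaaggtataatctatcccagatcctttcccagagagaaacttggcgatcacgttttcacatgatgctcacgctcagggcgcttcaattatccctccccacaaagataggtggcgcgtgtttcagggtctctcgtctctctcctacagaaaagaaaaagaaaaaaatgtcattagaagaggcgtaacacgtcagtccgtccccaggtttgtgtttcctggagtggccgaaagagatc
OCLN: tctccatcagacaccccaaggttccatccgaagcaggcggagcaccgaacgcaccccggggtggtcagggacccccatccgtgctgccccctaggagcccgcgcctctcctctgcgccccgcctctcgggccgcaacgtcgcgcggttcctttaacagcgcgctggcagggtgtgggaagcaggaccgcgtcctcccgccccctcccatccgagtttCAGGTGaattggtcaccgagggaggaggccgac
MUC1: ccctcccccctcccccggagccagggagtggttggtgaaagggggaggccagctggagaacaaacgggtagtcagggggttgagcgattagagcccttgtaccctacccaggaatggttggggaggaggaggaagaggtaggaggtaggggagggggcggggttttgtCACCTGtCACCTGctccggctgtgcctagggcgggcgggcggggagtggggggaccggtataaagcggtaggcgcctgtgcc
The ZEB1 motif lay 57 to 52 bases before the start, the OCLN motif began 33 bases before it, and the 2 MUC1 motifs began 82 and 75 bases before it. The ZEB2 window held none. A match of letters is a description of the sequence, not of a bound site.

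Values are log2 signals, so a difference of 1 is a doubling, and differences are given ± the standard error (SE) of a limma fit over the 12 arrays. Adjusted p values are limma's, Benjamini-Hochberg adjusted over the 10683 genes, with a threshold of 0.05. The groups differed widely across the array: 56.4% of the genes tested passed at 12 h and 54.6% at 48 h. At 12 h 1783 genes were higher and 4246 lower, with a median difference of -0.16. After each array was centred on the median of the tested genes, 2607 were higher and 2830 lower. The metal and oxidant response genes MT1M and HMOX1 rose by 4.82 and 6.24 at 12 h and by 6.49 and 6.34 at 48 h. Arrays of a group correlated at 0.9965 to 0.9982. Mean levels of the poly-A spike-in probe sets, which read bacterial RNAs put into each sample, were 6.21 ± 0.11 (SD, n = 3) and 6.68 ± 0.07 on the control and CdCl arrays at 12 h, and 5.87 ± 0.09 and 6.02 ± 0.46 at 48 h, and their part in the differences was not tested. Of 13 proximal tubule markers measured, 4 exceeded 4 on every array (PAX8, SLC4A4, GATM and KRT18), and LRP2, CUBN, AQP1 and SLC34A1 did not pass the filter on low values. The log2 of the tubule list's summed signal was 12.97 to 13.06 and 12.8 to 13 on the control and CdCl arrays at 12 h, and 13.51 to 13.59 and 12.42 to 12.59 at 48 h. Within it SLC4A4, a bicarbonate transporter, fell by 3.16 at 48 h, from a mean of 12.61 to 9.46, which made up most of the fall of the sum. GATM, an enzyme of creatine synthesis, fell by 0.87 at 12 h and 0.92 at 48 h. PAX8 and KRT18 differed by -0.07 and -0.08 at 12 h, neither past the threshold. At 48 h PAX8 rose by 0.32 (adjusted p = 0.000528) and KRT18 fell by 0.21 (adjusted p = 0.027). The part of these shifts in the 12 h and 48 h results was not tested. Of 10 fibroblast and pericyte markers, 4 exceeded 4 on every array (DCN, LUM, RGS5 and COL1A1), and the log2 of the list's summed signal was 13.06 to 13.22 and 13 to 13.4 on the control and CdCl arrays at 12 h, and 12.63 to 12.75 and 12.49 to 12.52 at 48 h. No endothelial marker of 8 and no immune marker of 6 did so. In cultures measured in bulk, fewer cells of a kind and less RNA per cell cannot be told apart.

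SNAI1, SNAI2, ZEB1 and ZEB2 were higher in CdCl cells at both times, TWIST1 was lower at both, and VIM and FN1 differed by less than 0.3 log2 units on the probe sets used. At 12 h 4 of the 7 genes were higher, 2 lower (TWIST1 and VIM) and 1 not past the threshold, beside 16.7% higher and 39.7% lower among all genes tested. With arrays centred the split was 4 higher and 1 lower, VIM having dropped out, beside 2607 higher and 2830 lower of the 10683 genes. At 48 h 5 were higher, 1 lower (TWIST1) and 1 not past the threshold, beside 26.5% higher and 28% lower among all genes. The summed proximal tubule signal was lower in CdCl cells at 48 h, mostly through SLC4A4 as given above, and its part in these counts was not tested. SNAI1 and SNAI2 exceeded the filter of 4 on CdCl arrays alone, so both entered the test through the group where they were high. The 7 genes were also chosen with earlier results of these data known. Counts and medians of the 7 genes, here and below, are therefore descriptions and not tests against all genes. The 3 CdCl arrays lay wholly above or below the 3 controls in 7 of the 7 genes at 12 h and in 6 of the 7 at 48 h, beside 66.4% and 60% of all genes tested. The median difference over the 7 was 1.26 at 12 h, or 1.42 above the median of all genes, and 0.62 at 48 h, or 0.63 above it.

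**Figure D1:**
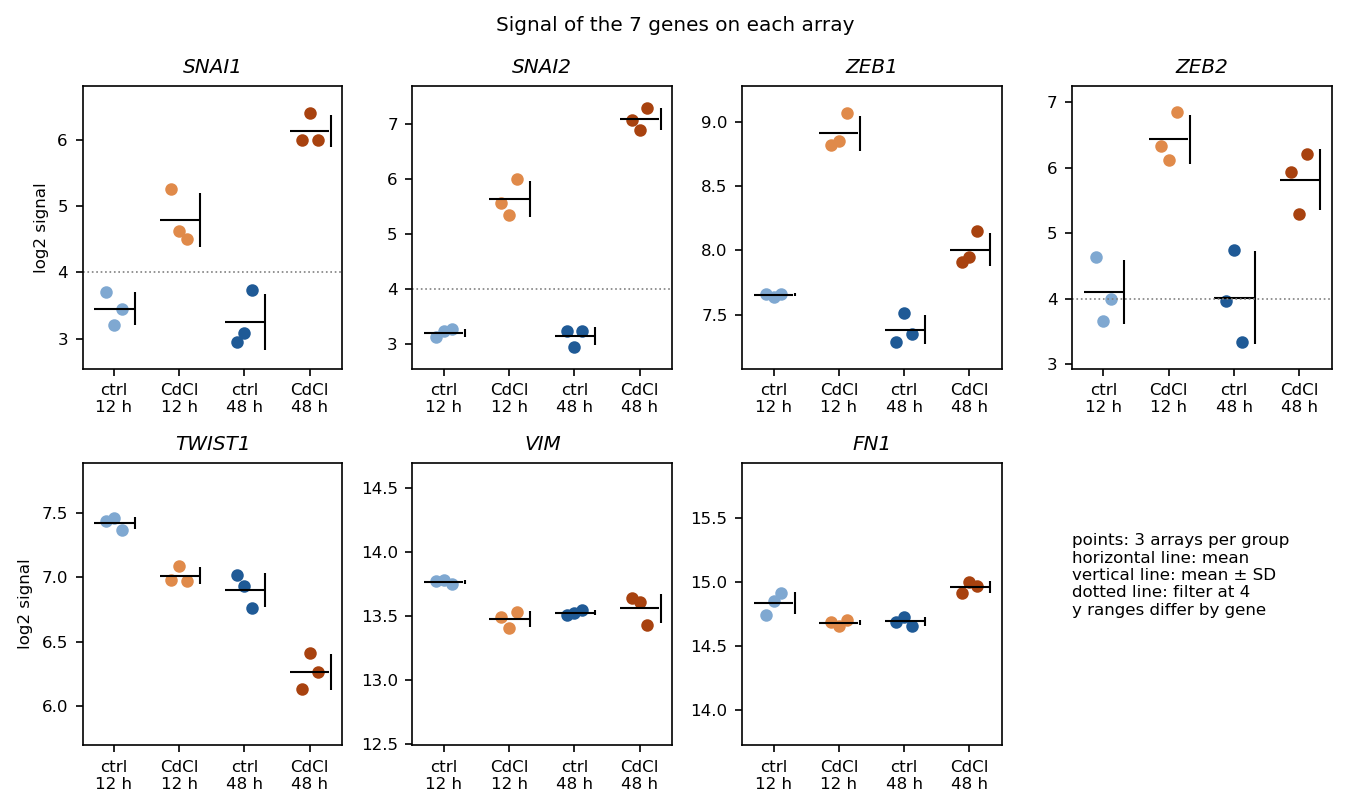
Log2 signal (y axis, range differing by gene) of the 7 genes on each array, in control and CdCl cells at 12 h and 48 h, with 3 arrays per group, the mean as a horizontal line and the SD as a vertical line. All CdCl arrays of SNAI1, SNAI2, ZEB1 and ZEB2 lie above the controls of the same time, and all CdCl arrays of TWIST1 lie below them.

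SNAI1 encodes Snail, the founding repressor of the family and a short-lived protein. Its signal on probe set 219480_at was 3.7, 3.21 and 3.45 on the control arrays at 12 h and 5.26, 4.62 and 4.5 on the CdCl arrays. At 48 h the controls read 2.95, 3.08 and 3.74 and the CdCl arrays 5.99, 6.41 and 5.99. No control array reached 4 and all 6 CdCl arrays exceeded it, with no overlap at either time. SNAI1 rose by 1.34 ± 0.24 at 12 h (adjusted p = 0.000562) and by 2.87 ± 0.24 at 48 h (adjusted p = 1.37e-06). With the control groups set to 4, these are at least 1.73-fold and at least 4.37-fold higher. The effect at 48 h exceeded that at 12 h by 1.54 ± 0.34 (interaction, adjusted p = 0.00396). Between the CdCl groups SNAI1 was 2.53-fold higher at 48 h (1.34, adjusted p = 0.000408).

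SNAI2 encodes Slug, the second SNAI repressor, which has roles in neural crest and in keratinocyte migration. On probe set 213139_at the controls read 3.12, 3.23 and 3.26 at 12 h and 3.23, 2.95 and 3.23 at 48 h. The CdCl arrays read 5.56, 5.34 and 5.99 at 12 h and 7.08, 6.89 and 7.29 at 48 h. Every CdCl array stood more than 2 units above every control array of its time. SNAI2 rose by 2.43 ± 0.15 at 12 h (adjusted p = 2.3e-07, at least 3.1-fold) and by 3.95 ± 0.15 at 48 h (adjusted p = 3.76e-09, at least 8.48-fold). At 48 h this was the largest difference among the 7 genes; at 12 h it lay within the error of that of ZEB2. Its effect grew by 1.52 ± 0.22 between the times (adjusted p = 0.000301), and the CdCl group at 48 h was 2.74-fold above the CdCl group at 12 h (adjusted p = 6.59e-06). The controls of SNAI1 and SNAI2 differed between 48 h and 12 h by -0.20 (adjusted p = 0.5) and -0.07 (adjusted p = 0.728), both under the filter.

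ZEB1 encodes a zinc-finger and homeodomain repressor held down in epithelial cells by microRNAs of the miR-200 family. On probe set 212764_at the controls read 7.66, 7.64 and 7.66 at 12 h and 7.29, 7.51 and 7.35 at 48 h, well within the measured range. The CdCl arrays read 8.82, 8.85 and 9.07 at 12 h and 7.91, 7.95 and 8.15 at 48 h. The groups did not overlap at either time, and the gap was wider at 12 h. ZEB1 rose by 1.26 ± 0.09 at 12 h (adjusted p = 6.92e-07, 2.4-fold) and by 0.62 ± 0.09 at 48 h (adjusted p = 0.000141, 1.53-fold). The effect was smaller at 48 h by 0.65 on the log2 scale (difference -0.65 ± 0.13, adjusted p = 0.00238), opposite in direction to the change of the SNAI effects.

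Of the 4 ZEB1 probe sets, 3 were tested in a fit over all 19005 probe sets of 1 symbol that passed the filter, of which 52.1% passed the threshold at 12 h, 49.7% at 48 h and 53.3% between the control groups. All 3 were higher at 12 h, by 1.26, 1.5 and 2.18. Probe set 210875_s_at rose by 0.8 ± 0.2 at 48 h (adjusted p = 0.00644), where its groups met at 5.37. Its effects at the 2 times differed by -0.69, which did not pass (adjusted p = 0.0813). Probe set 212758_s_at read 4.99, 4.72 and 4.95 in the 12 h controls, 7.24, 6.71 and 7.25 in the 12 h CdCl cells, 6, 5.92 and 6 in the 48 h controls and 6.07, 6.31 and 6.41 in the 48 h CdCl cells. It was higher by 2.18 ± 0.15 at 12 h (adjusted p = 5.32e-07). At 48 h it differed by 0.29 ± 0.15, which did not pass (adjusted p = 0.122). On this probe set the controls themselves were higher at 48 h than at 12 h by 1.08 ± 0.15 (adjusted p = 7.42e-05), whereas on 212764_at they were lower by 0.27 on the log2 scale (-0.27 in the gene fit, adjusted p = 0.0263), so the direction with time in culture depended on the probe set. Probe set 239952_at stayed between 1.99 and 2.01 on all arrays and was not tested.

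ZEB2 encodes the second ZEB repressor. On probe set 203603_s_at the controls read 4.63, 3.66 and 4 at 12 h and 3.97, 4.74 and 3.33 at 48 h, a wider scatter than for any other of the 7 genes. The CdCl arrays read 6.34, 6.12 and 6.85 at 12 h and 5.93, 5.3 and 6.21 at 48 h. All CdCl arrays lay above all controls. ZEB2 rose by 2.34 ± 0.36 at 12 h (adjusted p = 0.00021, 5.05-fold) and by 1.80 ± 0.36 at 48 h (adjusted p = 0.00131, 3.48-fold). The control means, 4.1 and 4.01, lay close to the filter of 4, so both folds rest on low control values. The difference between these effects, -0.54 (adjusted p = 0.435), did not pass the threshold. The other 4 ZEB2 probe sets lay under the filter and were not tested. One of them, 228333_at, read 2.61 to 2.99 in the 12 h controls and 3.73 to 3.89 in the 12 h CdCl cells, then 2.27 to 2.93 and 3.37 to 4.27 at 48 h, while the remaining 3 stayed between 2.45 and 2.78 on all arrays.

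TWIST1, the helix-loop-helix factor, went the other way. Its probe set 213943_at read 7.44, 7.46 and 7.37 in the 12 h controls and 6.98, 7.09 and 6.97 in the 12 h CdCl cells. At 48 h the controls read 7.02, 6.93 and 6.76 and the CdCl arrays 6.13, 6.41 and 6.26. All CdCl arrays lay below the controls of their time. TWIST1 fell by 0.41 ± 0.09 at 12 h (adjusted p = 0.00208) and by 0.64 ± 0.09 at 48 h (adjusted p = 8.9e-05, 1.55-fold). It also fell by 0.52 ± 0.09 in the controls between 12 h and 48 h (adjusted p = 0.000369), so the control level at 48 h was close to the CdCl level at 12 h. The effects at the 2 times differed by -0.23, which did not pass (adjusted p = 0.175).

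**Figure D2:**
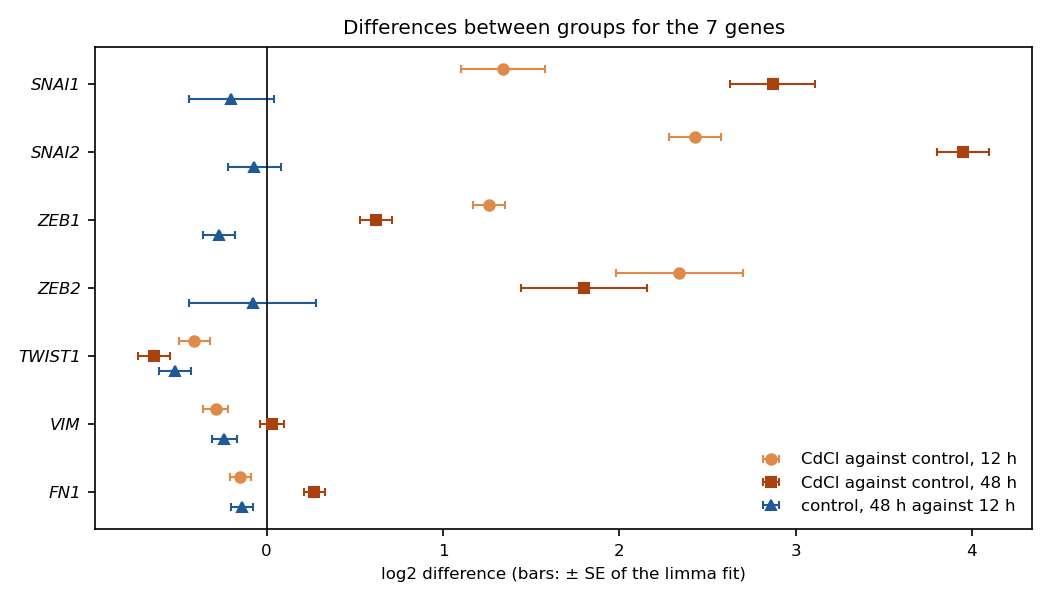
Log2 differences (x axis, bars ± SE of the limma fit) of the 7 genes for CdCl against control at 12 h and at 48 h and for control at 48 h against 12 h. SNAI1 and SNAI2 have the larger CdCl difference at 48 h and ZEB1 at 12 h, while VIM and FN1 lie within 0.3 of 0.

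VIM, the filament protein, was among the brightest signals. Probe set 201426_s_at read 13.77, 13.78 and 13.75 in the 12 h controls and 13.49, 13.41 and 13.53 in the 12 h CdCl cells. At 48 h it read 13.51, 13.52 and 13.55 in the controls and 13.64, 13.61 and 13.43 in the CdCl cells. The groups were apart at 12 h and overlapped at 48 h. VIM was lower at 12 h by 0.29 on the log2 scale (-0.29 ± 0.07, adjusted p = 0.0034), of which -0.13 remained relative to the median of all genes; with arrays centred the difference was -0.14 and did not pass (adjusted p = 0.144). At 48 h it differed by 0.03 (adjusted p = 0.709). The effects at the 2 times differed by 0.32 ± 0.10 (adjusted p = 0.0197), a call lost without CdCl 12 h replicate 2 (adjusted p = 0.0501) or with arrays centred (adjusted p = 0.175). The second VIM probe set, 1555938_x_at, lay between 3.48 and 4.45, and its 12 h difference of -0.26 did not pass (adjusted p = 0.32).

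FN1 was read on 7 probe sets, and they did not move alike. On 211719_x_at, the brightest, the controls read 14.74, 14.85 and 14.91 at 12 h and 14.69, 14.73 and 14.66 at 48 h. The CdCl arrays read 14.69, 14.66 and 14.7 at 12 h and 14.91, 15 and 14.97 at 48 h. The CdCl arrays lay below the controls at 12 h and above them at 48 h. At 12 h FN1 differed by -0.15 ± 0.06, which did not pass (adjusted p = 0.0623) and was 0.01 relative to the median of all genes. Without control 12 h replicate 1 that difference passed (adjusted p = 0.0283), and with arrays centred it was 0.00 (adjusted p = 0.993). At 48 h FN1 rose by 0.27 ± 0.06 (adjusted p = 0.00354, 1.2-fold), and the effects differed by 0.41 ± 0.09 (adjusted p = 0.00342). The highest value on any array was between 15.65 and 15.79, so these signals lay near the top of the scale.

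The other 3 bright FN1 probe sets, 210495_x_at, 212464_s_at and 216442_x_at, differed by -0.10 to -0.13 at 12 h, none past the threshold, and rose by 0.26 to 0.29 at 48 h. Probe set 214701_s_at was dimmer, at 8.58, 7.58 and 7.84 in the 12 h controls and 9.58, 9.56 and 9.66 in the 12 h CdCl cells. At 48 h it read 9.91, 10.03 and 10.04 in the controls and 11.22, 11.07 and 10.92 in the CdCl cells. It was therefore higher in CdCl cells at both times and higher at 48 h than at 12 h in both treatments. It rose by 1.60 ± 0.20 at 12 h (adjusted p = 4.8e-05, 3.03-fold) and by 1.08 ± 0.20 at 48 h (adjusted p = 0.000759, 2.11-fold), and by 1.99 between the control groups. Probe set 214702_at read 7.86, 7.35 and 7.52 in the 12 h controls and 7.87, 7.75 and 8.13 in the 12 h CdCl cells, which overlapped, then 6.79, 7.07 and 6.79 against 8.11, 7.86 and 8.26 at 48 h. Its difference was 0.34 at 12 h (adjusted p = 0.0827) and it rose by 1.19 ± 0.15 at 48 h (adjusted p = 6.28e-05). The dimmest, 1558199_at, rose by 0.72 ± 0.22 at 12 h (adjusted p = 0.0176) and differed by 0.13 at 48 h (adjusted p = 0.668). A suffix _x_at or _s_at marks a probe set that can match several sequences or transcripts, and which FN1 transcripts each reads was not tested.

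**Figure D3:**
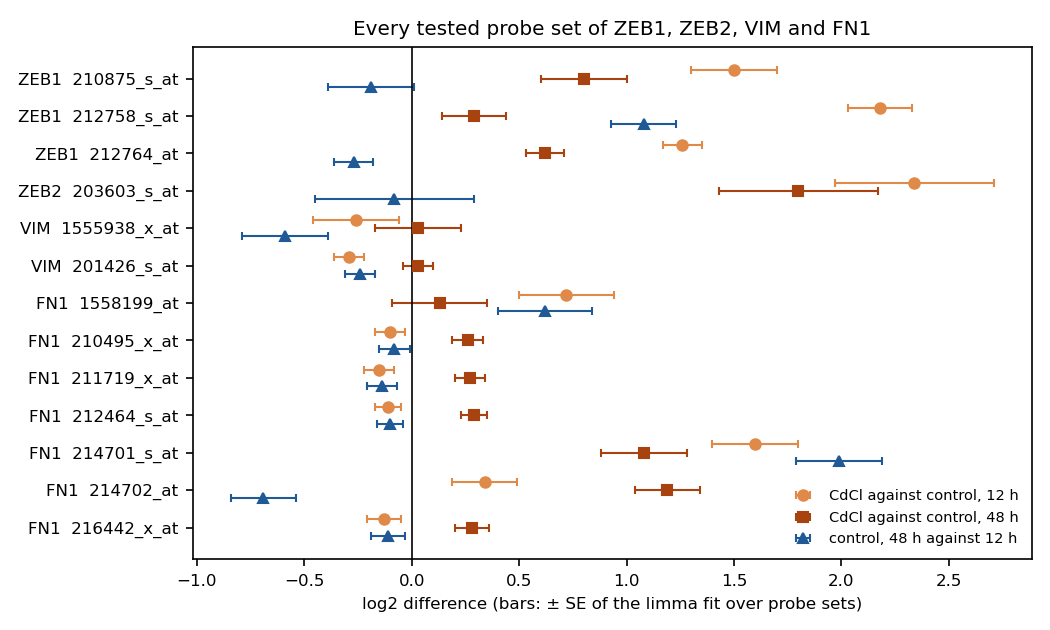
Log2 differences (x axis, bars ± SE of the limma fit over probe sets) of every tested probe set of ZEB1, ZEB2, VIM and FN1. The 4 bright FN1 probe sets lie within 0.3 of 0 while 214701_s_at is higher by 1.60 at 12 h, and the 3 ZEB1 probe sets are all higher at 12 h.

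The difference between the 2 effects (48 h minus 12 h) passed in 5 of the 7 genes, 4 with a higher and 1 with a lower value, beside 40.1% in either direction, 27% higher and 13% lower among all genes tested. SNAI1, SNAI2, VIM and FN1 had the higher value at 48 h and ZEB1 the lower. In the control cells, 48 h against 12 h, all 7 differences were negative and 3 passed (ZEB1, TWIST1 and VIM), beside 56.9% in either direction, 23.4% higher and 33.5% lower among all genes, a split of 2502 to 3574 that became 3099 to 3012 with arrays centred. TWIST1 alone of the 3 kept its call with arrays centred, since ZEB1 had an adjusted p of 0.108 and VIM, at -0.24, one of 0.0866. The ZEB1 call also ended when any of the control 12 h arrays, or control 48 h replicate 1 or 3, was left out (adjusted p = 0.0539 to 0.0989). Between the CdCl groups, 48 h against 12 h, SNAI1, SNAI2 and FN1 were higher and ZEB1 and TWIST1 lower, 3 and 2 of the 7, beside 62.3% in either direction, 34.7% higher and 27.6% lower among all genes. ZEB1 fell by 0.91 there (adjusted p = 4.3e-06) and TWIST1 by 0.74.

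Of 20 other transition factors listed, 11 were tested. At 12 h 5 were higher and 2 lower, beside 16.7% higher and 39.7% lower among all genes tested. At 48 h 3 were higher and 5 lower, beside 26.5% and 28%. Median differences were 0.19 and -0.22 against -0.16 and -0.02 over all genes. The ID proteins, which bind E proteins and keep helix-loop-helix factors from DNA, changed at both times. ID2 rose by 0.80 at 12 h (adjusted p = 0.00116) and by 1.59 at 48 h (adjusted p = 6.29e-06). ID1 and ID3 rose by 0.55 and 1.85 at 12 h, and ID1 fell by 1.67 at 48 h. ID3 averaged 3.73 in the 48 h controls and 2.89 in the 48 h CdCl cells, both under the filter of 4, so no size is given for its difference there; that call (adjusted p = 0.0313) was also lost when replicate 1 or 3 of either 48 h group was left out (adjusted p up to 0.129). RUNX2, a runt-domain factor of bone formation, averaged 6.36 in the 12 h controls, 4.4 in the 48 h controls and 6.33 in the 48 h CdCl cells. It thus rose by 1.94 at 48 h (adjusted p = 3.32e-07, 3.82-fold) against a control that had fallen by 1.96 since 12 h. MSX1, a homeobox factor, rose by 1.73 and 0.58. KLF8, a Kruppel-like factor, fell by 0.70 at 12 h. TCF3, the E protein that partners TWIST1, fell by 1.02 at 48 h on its brightest probe set, but its other probe sets there differed by -0.54 to 0.20 and none passed. HMGA2, a chromatin factor upstream of SNAI1 in other systems, and SOX9 fell by 1.47 and 1.88 in the controls over time.

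The corepressors that SNAI and ZEB proteins recruit, together with the enzymes that turn these proteins over, had more lower than higher calls. Of 26 tested, 15 were lower and 2 higher at 12 h, beside 39.7% lower and 16.7% higher among all genes tested. With arrays centred 12 were lower and 3 higher, beside 2830 lower and 2607 higher of the 10683 genes. At 48 h 14 were lower and 2 higher, beside 28% lower and 26.5% higher among all genes. With arrays centred 13 were lower and 2 higher at 48 h, beside 2839 lower and 2986 higher among all genes. The medians at 12 h and 48 h were -0.39 and -0.29 against -0.16 and -0.02. In the controls over time 13 were lower and 4 higher, beside 33.5% lower and 23.4% higher among all genes. There 11 were lower and 6 higher with arrays centred, beside 3012 lower and 3099 higher among all genes. EZH2, the methyltransferase of the Polycomb complex, fell by 1.25 ± 0.13 at 12 h (adjusted p = 1.18e-05) and by 1.28 ± 0.13 at 48 h (adjusted p = 8.21e-06), and by 1.40 in the controls over time. CTBP1, the corepressor of ZEB proteins, fell by 0.93 and 0.65, while its relative CTBP2 rose by 0.47 at 12 h. CTBP2 probe sets 201219_at and 210554_s_at also rose there, by 0.63 (adjusted p = 0.000192) and 0.41 (adjusted p = 0.00285). The other 2 bright CTBP2 probe sets differed by 0.14 and 0.17 without passing. SIN3A, a scaffold for histone deacetylases, fell by 0.51 and 0.76, and a second probe set differed by -1.06 at 12 h. EHMT2, a histone H3 lysine methyltransferase, fell by 0.87 at 12 h and differed by -0.08 at 48 h. The F-box proteins FBXL5 and FBXO11, which take part in the degradation of Snail, fell by 1.01 and 0.96 at 48 h, although at 12 h a second FBXO11 probe set differed by 0.25 (adjusted p = 0.211) beside -0.48 on the first. CTDSP1, a phosphatase that stabilises Snail, fell by 0.69 and 0.34.

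Epithelial genes, among them direct targets of the SNAI and ZEB repressors, did not move one way. Of 28 tested, 4 were higher and 10 lower at 12 h and 9 higher and 4 lower at 48 h, with medians of -0.14 and 0.03. Among all genes tested 16.7% were higher and 39.7% lower at 12 h, and 26.5% and 28% at 48 h, with medians of -0.16 and -0.02. The 12 h split was 7 higher and 6 lower with arrays centred, beside 2607 higher and 2830 lower of the 10683 genes. Without control 12 h replicate 1, 6 were lower at 12 h. At 48 h 2 were lower when replicate 1 of either group was left out. CDH1, which encodes E-cadherin, read 7.39, 7.23 and 6.91 in the 12 h controls and 6.61, 6.89 and 6.9 in the 12 h CdCl cells. At 48 h it read 7.95, 8.29 and 8.19 in the controls and 8.59, 8.41 and 8.65 in the CdCl cells. It lay below the controls at 12 h and above them at 48 h, each by a small margin. CDH1 fell by 0.38 ± 0.13 at 12 h (adjusted p = 0.0318), with an adjusted p of 0.145 after centring and up to 0.131 when either of control 12 h replicates 1 and 2, or CdCl 12 h replicate 1, was left out. It rose by 0.41 ± 0.13 at 48 h (adjusted p = 0.0229, up to 0.0966 when replicate 1 of either 48 h group, or CdCl replicate 3, was left out). The effects differed by 0.79 (adjusted p = 0.00705). EPCAM, an epithelial adhesion molecule, differed by -0.20 at 12 h and -0.32 at 48 h, neither past the threshold (adjusted p = 0.216 and 0.0613), though the latter passed when replicate 3 of either 48 h group was left out (adjusted p from 0.0175).

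OCLN, which encodes occludin of tight junctions, read 9.69, 9.69 and 9.75 in the 48 h controls and 10.5, 10.7 and 10.48 in the 48 h CdCl cells, a rise of 0.85 ± 0.11 (adjusted p = 4.05e-05). At 12 h it read 8.84, 8.5 and 8.87 against 8.72, 8.81 and 8.99, which overlapped (0.10, adjusted p = 0.435). The other 2 OCLN probe sets rose by 1.39 and 1.19 at 48 h, but at 12 h one differed by 0.06 and the other fell by 0.45 (adjusted p = 0.0066), so the 12 h result depended on the probe set. CLDN4, a claudin of the distal nephron, rose by 0.87 and 1.52. GRHL1, a grainyhead factor of epithelial barrier genes, rose by 2.81 ± 0.22 at 12 h (adjusted p = 1.48e-06, 7.03-fold) and by 3.20 ± 0.22 at 48 h (adjusted p = 3.65e-07, 9.21-fold), more than any other gene of the list. Its controls averaged 4.7 at 12 h and 3.81 at 48 h, the latter under the filter of 4, so the 48 h fold rests on low control values. KLF4, a Kruppel-like factor of differentiated epithelium, rose by 0.56 and 1.06. MUC1, a membrane mucin, fell by 0.74 and 1.73 (3.32-fold at 48 h, adjusted p = 3.7e-08). ESRP1, the splicing factor of epithelial transcripts, fell by 1.26 at 12 h (adjusted p = 4.56e-07) and differed by -0.18 at 48 h (adjusted p = 0.0918), while in the controls it rose by 2.05 over time. A second ESRP1 probe set differed by -0.47 at 12 h (adjusted p = 0.064). Of the tested epithelial genes whose first promoter window held CAGGTG, such as OCLN and MUC1, 1 of 9 was higher and 2 lower at 12 h, and 5 were higher and 3 lower at 48 h. Of the 11 without it, 3 were higher and 5 lower at 12 h, and 3 were higher at 48 h with the other 8 not past the threshold. The shares over all genes tested were 16.7% higher and 39.7% lower at 12 h, and 26.5% and 28% at 48 h.

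**Figure D4:**
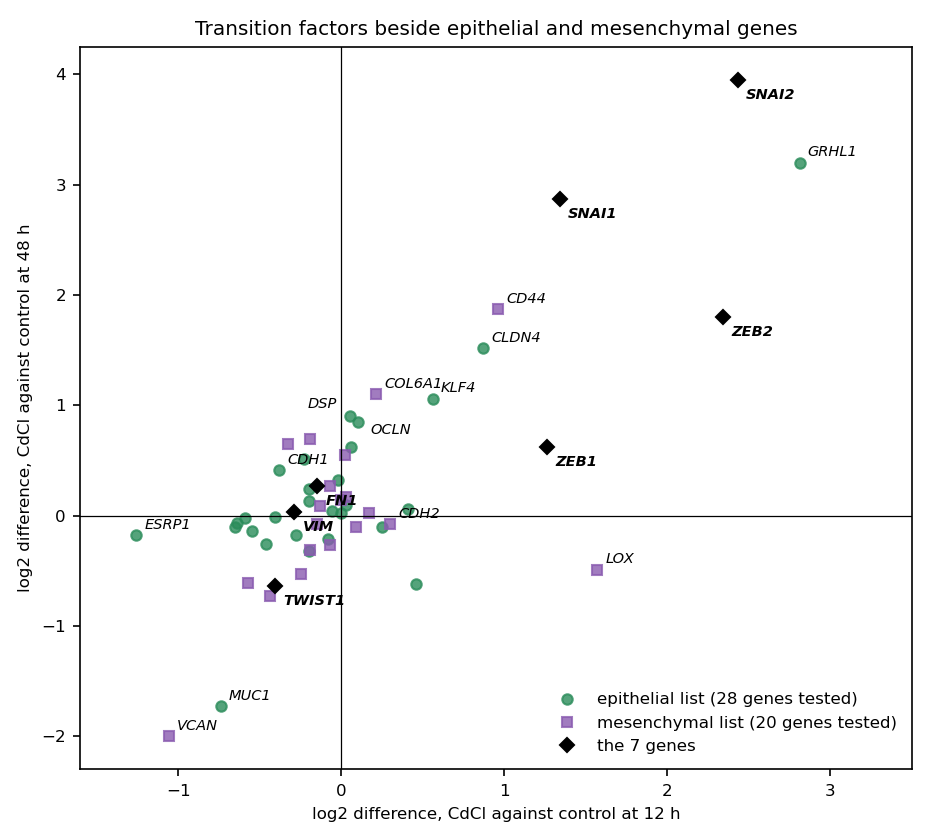
Log2 difference between CdCl and control at 12 h (x axis) and at 48 h (y axis) for the 28 epithelial and 20 mesenchymal genes tested and the 7 genes. SNAI1, SNAI2, ZEB1 and ZEB2 lie in the upper right with GRHL1, while most genes of both lists lie close to 0.

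Of 20 mesenchymal genes tested, 4 were higher and 5 lower at 12 h, beside 16.7% and 39.7% of all genes. With arrays centred 5 were higher and 3 lower, beside 2607 higher and 2830 lower of the 10683 genes. At 48 h 5 were higher and 5 lower, beside 26.5% and 28% of all genes. The medians were -0.07 and -0.03. Without CdCl 12 h replicate 3 the 12 h count was 2 higher, and without control 12 h replicate 2 it was 3 lower. Of the 4 higher at 12 h, COL6A1 (0.21, adjusted p = 0.0464) lost its call in 9 of the 12 fits with 1 array left out. It passed with arrays centred (adjusted p = 0.00728). CDH2, which encodes N-cadherin, read 9.26, 9.41 and 9.55 in the 12 h controls and 9.61, 9.64 and 9.88 in the 12 h CdCl cells. It rose by 0.30 ± 0.09 there (adjusted p = 0.0141), a call lost when control replicate 1 or CdCl replicate 3 of that time was left out (adjusted p up to 0.0631), and differed by -0.08 at 48 h. A second, dimmer CDH2 probe set differed by 0.15 at 12 h (adjusted p = 0.418) and fell by 0.38 at 48 h (adjusted p = 0.0433). CD44, the hyaluronan receptor, rose by 0.96 and 1.87 (3.66-fold at 48 h, adjusted p = 2.88e-08), though a dimmer CD44 probe set differed by 0.18 at 12 h (adjusted p = 0.216). From 12 h to 48 h CD44 fell by 1.34 in the controls and by 0.42 in the CdCl cells. COL6A1, a collagen VI chain, rose by 1.1 at 48 h, and by 0.52 and 0.64 on its dimmer probe sets. On the probe set used its controls fell by 0.88 over time, while both CdCl groups averaged 9.34. VCAN, the proteoglycan versican, fell by 1.06 and 2.00 (4.01-fold at 48 h, adjusted p = 2.71e-09). LOX, which crosslinks collagen, rose by 1.57 at 12 h and fell by 0.49 at 48 h. ACTA2, smooth muscle actin, fell by 0.57 at 12 h, a call lost when control replicate 1 or 2, or CdCl replicate 1, of that time was left out (adjusted p up to 0.0578), and by 0.61 at 48 h. S100A4, also called fibroblast-specific protein, fell by 0.44 and 0.73. In the controls over time 10 were lower and 1 higher (LOX, by 2.11), beside 33.5% lower and 23.4% higher among all genes.

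Among 7 tested intermediate filament genes and partners of vimentin, 5 were lower at 12 h and the other 2, PLEC at 0.23 and KRT80 at 0.09, did not pass. With arrays centred 1 was higher and 3 lower at 12 h, beside 2607 higher and 2830 lower of the 10683 genes. In the same list 2 were higher and 1 lower at 48 h, with medians of -0.50 and -0.06. Among all genes 16.7% were higher and 39.7% lower at 12 h, and 26.5% and 28% at 48 h. The nuclear lamins LMNB2, LMNA and LMNB1 fell by 1.11, 0.94 and 0.41 at 12 h, where the LMNB1 difference was -0.26 and did not pass with arrays centred (adjusted p = 0.0543). Of the 5 LMNA probe sets, 214213_x_at differed by -0.21 at 12 h without passing (adjusted p = 0.297), and 212089_at fell by 0.43 at 48 h (adjusted p = 0.00746) where the others did not pass. LMNB1 fell by 1.67 at 48 h (adjusted p = 2.11e-07). NES, the filament protein nestin, fell by 0.50 at 12 h. SYNM, which encodes synemin, a filament protein that joins vimentin, fell by 0.54, a call lost when control replicate 2 or 3, or CdCl replicate 1, of that time was left out (adjusted p up to 0.106) and with arrays centred (adjusted p = 0.0842). PLEC, the linker plectin, and KRT80, a keratin, rose by 0.92 and 0.87 at 48 h. In the controls over time 6 were lower and 1 higher, beside 33.5% lower and 23.4% higher among all genes. NES fell by 2.04 and LMNB2 fell by 2.06.

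Of 16 tested fibronectin receptors and assembly genes, 1 was higher and 8 lower at 12 h. At 48 h 2 were higher and 5 lower, and the medians were -0.31 and -0.13. All genes tested had 16.7% higher and 39.7% lower at 12 h, and 26.5% and 28% at 48 h. Without CdCl 48 h replicate 1, 1 was higher at 48 h. ITGA4, the integrin alpha 4 chain that binds an alternative segment of fibronectin, fell by 1.45 at 12 h (adjusted p = 1.05e-05) and by 2.03 in the controls over time. FBN1, the microfibril protein fibrillin, fell by 1.20 and 0.80. FBLN1, a fibulin that binds fibronectin, fell by 0.67 at 12 h and differed by -0.17 at 48 h (adjusted p = 0.234), where its other 2 probe sets fell by 0.5 and 0.78. SDC2, a heparan sulfate syndecan, fell by 0.58 and 0.59. TNS1, a tensin that links integrins to actin at fibrillar adhesions, averaged 6.11 in the 48 h controls and 3.07 in the 48 h CdCl cells, at least 4.31-fold lower (-3.04, adjusted p = 2.65e-07), while a second TNS1 probe set fell by 0.56. Its relative TNS3 fell by 1.21. TGM2, a transglutaminase that crosslinks fibronectin, fell by 2.71 in the controls over time, and by 2.67 and 2.74 on its other 2 probe sets. With CdCl its probe sets disagreed: the brightest differed by 0.11 at 12 h and -0.02 at 48 h, neither past the threshold, while 211003_x_at rose by 0.87 (adjusted p = 2.1e-05) and 1.62 (adjusted p = 1.43e-07) and 211573_x_at by 0.81 (adjusted p = 0.0164) and 1.12 (adjusted p = 0.00263).

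By the likeness of pattern, measured as the root mean square difference over the 12 arrays after each gene was centred on its own mean, the genes closest to SNAI2 were SUGCT-AS1 (0.24), DKK1 (0.41) and ADORA2B (0.43). Those closest to SNAI1 were POR (0.32), SLC30A2 (0.34) and ZNF365 (0.35). ZEB1 was followed most closely by UGDH (0.11), TOX (0.13) and MRPL18 (0.13), and ZEB2 by CXCL5 (0.36), CTSLP8 (0.37) and KIAA1217 (0.39). The UGDH differences, 1.17 at 12 h and 0.46 at 48 h, had the order of ZEB1, and those of DKK1, 2.81 and 3.28, had the order of SNAI2. TWIST1 was closest to DZIP1, MTHFD1 and PUS7 (0.09 each), VIM to NDUFA11, TIAL1 and TSPAN13 (0.06 each), and FN1 to TYW2 (0.06), PAX8 (0.06) and COX6A1 (0.07). The measure was not scaled to a gene's spread, so small values for VIM and FN1, which varied little, do not mark closer likeness.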

How the data were processed

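RNA from HK-2 cells was hybridised to Affymetrix arrays, 3 per group in 4 groups. The deposited values are log2 signals for 54675 probe sets, made by the authors with GCRMA (background correction by probe sequence, normalisation between arrays, summary per probe set) per the submitters' processing notes; the sources used here do not give its version. They were used as deposited. No counts or scanner values were used, so the number of arrays limits the precision.

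Symbols came from the platform annotation: 41091 probe sets carried 1 symbol, 1801 several and 11783 none. A gene was tested where its value exceeded 4 on at least 3 arrays. One limma fit (limma 3.58.1, R 4.3.3) of 4 group means gave all comparisons, two-sided, and a second fit covered 19005 probe sets. Where a group lay wholly under 4, folds are lower bounds with that group set to 4. An exact permutation test of 3 against 3 cannot go below p = 0.1, so calls use a spread moderated across genes. Replicate numbers were not used as a block, and deviations of same-numbered arrays correlated at -0.34 to 0.16. The fit was tested on simulated data.

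The 7 genes and the lists were chosen with earlier results of these data known. Within each list the text names up to 4 genes of largest change past the threshold at each time, up to 3 in the controls over time, CDH1, CDH2, OCLN and EPCAM in any case, the 3 genes most like each of the 7, and MT1M and HMOX1. Not all genes that rule gives are described. Alternatives were quantile normalisation, centring, no filter or one at 5, other probe set choices, another prior, fits of the compared arrays alone, the replicate block, and each array left out. Promoter sequences are RefSeq's, from GRCh38.p14.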

Additional observations from a re-analysis of the deposited data

Results flagged for a closer look

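For 5 of the 7 genes the CdCl effect differed between 12 h and 48 h by limma's interaction term. The effect at 48 h minus that at 12 h was 1.54 for SNAI1 (adjusted p = 0.00396), 1.52 for SNAI2 (adjusted p = 0.000301), -0.65 for ZEB1 (adjusted p = 0.00238), 0.32 for VIM (adjusted p = 0.0197) and 0.41 for FN1 (adjusted p = 0.00342), on the log2 scale. The median of this difference over all genes tested was 0.13. SNAI1 and SNAI2 were under the filter of 4 on all control arrays. The VIM difference did not pass with arrays centred (adjusted p = 0.175) or without CdCl 12 h replicate 2 (adjusted p = 0.0501). That of FN1 was -0.52 on its probe set of largest variance, where it did not pass in the fit over probe sets (adjusted p = 0.164). In that fit the ZEB1 difference was -1.89 on 212758_s_at (adjusted p = 7.5e-05). On 210875_s_at it was -0.69 and did not pass (adjusted p = 0.0813).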

How the results depend on the processing

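SNAI1, SNAI2, ZEB1, ZEB2 and TWIST1 kept their calls at 12 h and 48 h with each array left out in turn. Over these fits the number of the 7 genes lower at 12 h ranged from 2 to 3, the number with the higher effect at 48 h from 3 to 4 and the number lower in the controls over time from 2 to 3. VIM at 48 h ranged from -0.01 to 0.1, and in the controls over time SNAI2 ranged from -0.12 to 0.03 and ZEB2 from -0.45 to 0.26. With arrays centred, 1 gene was lower at 12 h and 1 in the controls over time, FN1 at 12 h was 0.00 and SNAI2 in the controls 0.01. With quantile normalisation VIM at 48 h was -0.06. With the probe set of largest variance, FN1 at 12 h was 1.60, its effect at 48 h minus 12 h -0.52, and in the controls over time FN1 was 1.99 and ZEB1 1.08, VIM between the CdCl groups was -0.30, 1 gene was lower at 12 h, 2 had the higher effect at 48 h and 2 were higher in the controls. With the mean of a gene's probe sets, FN1 at 12 h was 0.31, in the controls over time ZEB1 was 0.16 and FN1 0.21, VIM between the CdCl groups was -0.11, 2 had the higher effect at 48 h and 1 was higher in the controls. With the replicate number as a block, the counts at 12 h were 4 higher and 2 lower and at 48 h 5 higher and 1 lower, and no count changed. FN1 at 12 h passed without the filter (adjusted p = 0.0235) and with a trended, robust prior (adjusted p = 0.00789). Signals under 4 limit SNAI1, SNAI2 and ZEB2 in the controls, and the bright FN1 probe sets lie near the top of the scale. VIM lay lower, between 13.41 and 13.78, where the highest value on any array was 15.65 to 15.79.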
